A study of Mus musculus with 388 samples.

Results

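The cells described here are Tomato- marrow cells that carried the leptin receptor transcript Lepr at 1000 CPM or more, where CPM is the gene's count per 1000000 counts of the cell. They were chosen by that measured Lepr level: the rule also asked for at least 1000 genes above 0 and at least 10000 counts, which every Tomato- cell of the series had. The columns of the count table carry 2 kinds of name, KT_ and zBo., which are treated as separate column sources. The KT_ columns gave 69 members of 71 Tomato- cells in the set named N1 and 56 of 70 in the set named N2, and the zBo. columns gave 38 of 60, all in a set named N2. The series holds 388 cells in all, each a GEO sample of its own.

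Every cell came from bone marrow of C57BL/6 mice aged 2 months with the genotype KitMerCreMer; R26tdTomato, given tamoxifen in the womb at E12.5 and E14.5 (days of embryonic life). In such mice a tamoxifen-activated Cre driven by the Kit locus switches on a tdTomato reporter for good, so Tomato+ cells descend from cells that had Kit-driven Cre at that time, whereas Tomato- cells did not switch the reporter on, and incomplete recombination can leave some descendants unmarked. Both groups share the alleles, the tamoxifen and the sort, for PDGFRα on the surface and against CD45, Ter119 and CD31, the usual marks of blood, red and endothelial cells. The comparison group is the Tomato+ cells that passed the same Lepr rule, 47 in KT_ and 110 in zBo. columns. No animal is named, so the cells of a column source count as 1 sample, and no test was possible. Intervals of shares cover only the limited number of cells, taken as if independent, and not differences between animals. Reads carried no molecular identifiers.

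Lepr-expressing stromal cells form a perivascular network in adult marrow. They are known as the main source of the chemokine CXCL12 and of stem cell factor, which hold and maintain haematopoietic stem cells, and as a reservoir of marrow adipocytes and osteoblasts. They secrete adiponectin and lipoprotein lipase without storing fat, and EBF and FOXC1 transcription factors maintain their identity.

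The Lepr values nearest the threshold were, inside, 1065, 1192 and 1212 CPM in KT_ and 1405, 1543 and 2160 CPM in zBo. cells. Just outside stood 777, 434 and 206 CPM in KT_ and 863, 587 and 574 CPM in zBo. cells. The 38 Tomato- cells below the threshold were 16 KT_ cells, 14 of them in the set N2, and 22 zBo. cells.

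Members held a median of 637863 counts in KT_ and 743506 in zBo. columns, within 19881 to 1437645. A group of 11 zBo. members stood apart: each had fewer than 1500 genes at 10 CPM or more, against a median of 3325 and a lowest value of 1613 in KT_ cells. The zBo. median of genes at 10 CPM was 2143.5, and 635 in the poorest cell, although the medians of all genes with a count, 4547 and 4180.5, lay closer. With each cell thinned to 150000 counts the medians of genes were 3699.5 (120 KT_ cells) and 2700 (36 zBo. cells), so equal depth left a gap between the sources. The median mitochondrial share was 0.736% in KT_ and 1.66% in zBo. cells and reached 20.4% in 1 zBo. cell. With at least 5 counts required, 51 of the 69 KT_ N1 and 51 of the 56 KT_ N2 members had Y-linked reads alone and 0 had Xist reads alone, against 4 and 17 of the 38 zBo. members. The source, the mix of sexes and the handling of the libraries cannot be told apart.

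The label was met by its markers. All 7 genes that define it, 6 beside Lepr, were at 10 CPM or more in nearly every member of both sources, and the order of their levels per kilobase of exon was the same in KT_ and zBo. cells. Lepr itself (chromosome 4, 101717404 to 101815352 of GRCm38, gene models of GENCODE M21) ran from 1065 CPM through a median of 4934 to 13098 in KT_ and from 1405 through 4951 to 15576 in zBo. cells. These values are a description, since the rule used them.

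Cxcl12 (chromosome 6, 117168535 to 117181367), the chemokine that retains haematopoietic cells in marrow, was the highest of the 7. In KT_ cells its lowest, median and highest levels were 26561, 55356 and 77890 CPM, with a coefficient of variation (CV, the SD over the mean) of 0.197. In zBo. cells they were 1261, 24574 and 55917 CPM, with a CV of 0.472. The KT_ cells thus lay much closer together than the zBo. cells. Without the 11 zBo. cells with few genes, the zBo. median was 29080 CPM and the CV 0.357.

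Kitl, which encodes stem cell factor, the ligand of Kit, ran from 347 through 1561 to 5428 CPM in KT_ cells and from 26.3 through 1930 to 9780 CPM in zBo. cells. Adipoq, the adipocyte hormone adiponectin, ran from 573 through 3416 to 11218 CPM and from 67.2 through 2929 to 11110 CPM. The ranges of the sources overlapped for both genes, and 100% of members had each at 10 CPM or more. Vcam1, an adhesion receptor for blood cell integrins, had medians of 5300 CPM in KT_ and 4234 in zBo. cells, and Lpl, a secreted lipase that frees fatty acids, 1676 and 1289. Ebf1, a transcription factor of this stroma, was the lowest, with medians of 316 and 441 CPM, and was at 10 CPM or more in 96.8% of KT_ members (exact Clopper-Pearson 95% interval 92.01 to 99.1%) and 92.1% of zBo. members (78.6 to 98.3%).

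**Figure D1:**
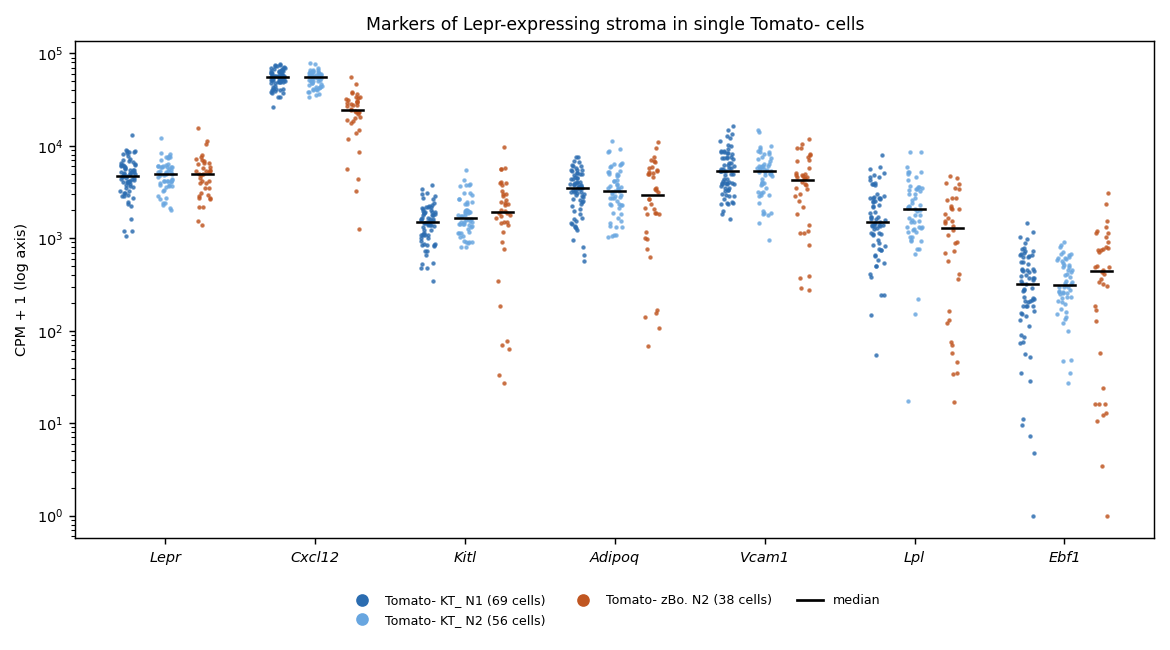
Level of the 7 label markers in each Tomato- Lepr cell, as CPM + 1 on a log axis. Points are single cells of the KT_ sets N1 (69 cells) and N2 (56 cells) and of the zBo. columns (38 cells), and black lines are medians. Cxcl12 forms the tightest band in KT_ cells, from 26561 to 77890 CPM.

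Per kilobase of merged exon length, which allows genes to be compared, median levels in KT_ and zBo. cells were 6770 and 3006 CPM per kb for Cxcl12 and 2474 and 2121 for Adipoq. Lepr followed at 700 and 702 CPM per kb, then Vcam1 at 598 and 477. Kitl stood at 264 and 327, Lpl at 160 and 123.03 and Ebf1 at 32.4 and 45.2. The level per kilobase thus fell in the same order in both sources, and neighbours such as Lepr and Vcam1 overlapped across cells.

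Other cell types the sort could hold were looked for through their own markers. Ptprc, which encodes CD45, had 5 or more counts in 1 KT_ and 0 zBo. members, and Pecam1, which encodes CD31, in 8 and 1. In both sources, 0 of the 14 endothelial, 10 lymphoid, 11 erythroid, 9 megakaryocyte, 8 Schwann, 16 chondrogenic and 20 myeloid list genes in the table reached 10 CPM in 50% or more of the cells. In the KT_ columns alone, 1 chondrogenic, 1 Schwann and 4 myeloid genes passed that level. Over all genes with a count in a member, 6.88% passed it in both sources, so 0 in lists this short says little by itself. Sox9, a cartilage and progenitor factor, reached 10 CPM in 60.8% of KT_ members with a highest cell of 10302 CPM, and S100b, a calcium-binding protein of the Schwann list, in 51.2% with a highest cell of 602.6 CPM. Tomato+ KT_ cells had them in 63.8% and 55.3%, and zBo. members in 15.8% and 28.9%. Among other defining markers, Tie1 (endothelial), Rag1 and Ms4a1 (lymphoid), Sox10 (Schwann) and Acan (cartilage) were at 0 in every member.

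Granulocyte transcripts were present in many KT_ members. The 20 myeloid genes summed to a median of 217 CPM per KT_ member, from 0 to 23087, against a median of 5.43 and a highest value of 694 in zBo. members. S100a8, a calcium-binding protein that fills neutrophils, reached 10 CPM in 76.8% of KT_ members (68.4 to 83.9%), with a median level of 39.5 CPM, and in 2.63% of zBo. members. Tomato+ KT_ cells of the same rule had a median myeloid sum of 8.75 CPM, and the 16 KT_ cells below the Lepr threshold one of 149811 CPM. Without the 9 KT_ and 1 zBo. members that held 5 or more counts of Ptprc or Pecam1, 56 of the 60 more variable genes described further on were still called. That setting does not address the granulocyte reads, since only 1 KT_ member had 5 or more Ptprc counts. Leaving out members by their myeloid sum was not run.

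Of 32 gene lists, 519 genes were in the table. A gene was taken as expressed in both sources when it stood at 10 CPM or more in 50% or more of the cells of each, which held for 6.88% of all genes with a count in a member. Lists of stromal products such as complement, matrix and niche factors stood above that share, and those of blood, endothelial and cartilage cells under it. The lists were chosen with earlier results of these data known, so the counts are a description.

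**Figure D2:**
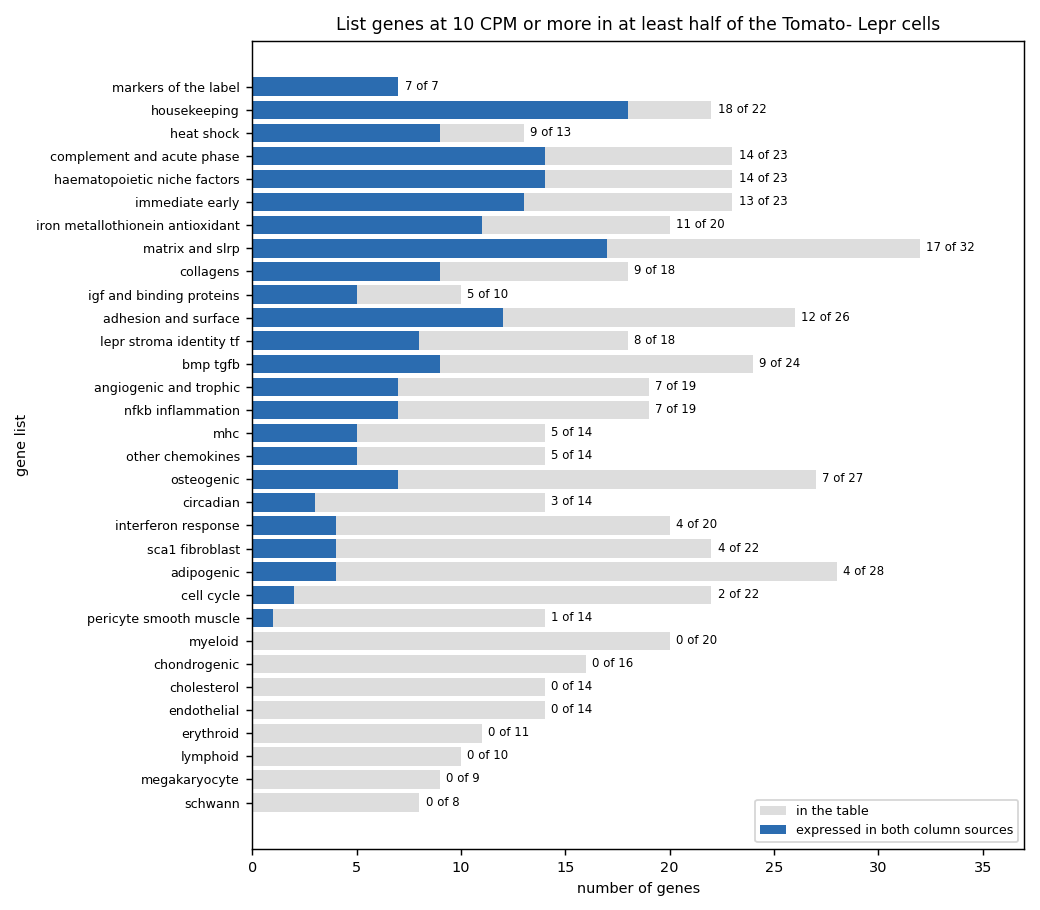
Number of genes of each list in the table (grey) and expressed in both column sources (blue), with a gene count on the horizontal axis. The label markers (7 of 7), housekeeping genes (18 of 22) and heat shock genes (9 of 13) fill most of their bars, and the lists of blood, endothelial and cartilage cells have none.

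Factors that feed haematopoietic cells were expressed for 14 of 23 list genes. Beside Cxcl12 and Kitl these included Csf1, the macrophage growth factor, with medians of 732 and 257 CPM in KT_ and zBo. cells, and Il34, the other ligand of the same receptor, with 369 and 164.9 CPM. Il7, needed by B cell progenitors, had medians of 221 and 143.5 CPM and was at 0 in the lowest cell of each source. Igf1, a growth factor, had 337 CPM in KT_ and 1165 CPM in zBo. cells, the reverse order of Csf1. Among other chemokines (5 of 14), Cxcl14 had medians of 2777 and 790 CPM.

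Of the transcription factors linked to this stroma, 8 of 18 were expressed in both sources. Runx1 had medians of 434 and 210 CPM, Prrx1, a limb mesenchyme factor, 184.7 and 163.7, and Zeb2 178.6 and 234. Ebf3, the partner of Ebf1, had 34.8 and 79.04 CPM, and Foxc1 reached 10 CPM in 30.4% of KT_ and 52.6% of zBo. members. Each of them was thus low or at 0 in part of the cells.

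The lipid side was uneven. Of 28 adipogenic list genes, 4 were expressed in both sources: Adipoq, Lpl, Apoe, a lipid carrier, with medians of 5607 and 2103 CPM, and Cebpd, an early adipogenic factor, with 174.6 and 91.4. Pparg, the master regulator of fat cells, had medians of 55.4 and 4.64 CPM, with highest cells of 1643 and 2876. Genes of mature fat cells were low: Plin1, which coats lipid droplets, and Fabp4, a fatty acid carrier, had medians of 0 in both sources, and Cd36 and Lep were at 0 in all members.

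The bone side was uneven in the same way. Of 27 osteogenic genes, 7 were expressed in both sources. Ibsp, bone sialoprotein, was among the highest genes of all: it ran from 135.7 through 7967 to 27096 CPM in KT_ cells and from 770 through 12203 to 76472 CPM in zBo. cells. Sparc, a collagen-binding matrix protein, had medians of 2814 and 1714 CPM, and Col1a2, a chain of type I collagen, 1948 and 643. Col1a1, the other chain, had 192.8 and 38.4 CPM, below Col1a2 also per kilobase (29.4 against 156.7 CPM per kb in KT_ cells). Sp7, the factor that commits cells to osteoblasts, reached 10 CPM in 12% and 13.2% of members, and Bglap, osteocalcin, in 0 and 5.26%.

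Genes of secreted defence and matrix proteins were also expressed. Of 23 complement and acute phase genes 14 were expressed: Serping1, the C1 inhibitor, had medians of 14331 and 8049 CPM, Hp, haptoglobin, 3351 and 3225, and Clu, clusterin, 2114 and 2321. C4b had 2460 and 393 CPM. Binding proteins of insulin-like growth factors differed in order between the sources: Igfbp4 stood at 1790 and 397 CPM per kb and Igfbp5 at 687 and 1236. Of 32 matrix genes 17 were expressed, with Bgn (biglycan) at 3993 and 1338 CPM, Fbln5 (fibulin 5) at 2836 and 2613 and Tnc (tenascin C) at 2715 and 1103. Gas6, a ligand of TAM receptors, had 3830 and 1294 CPM, and Chrdl1, a BMP antagonist, 2255 and 1722.

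Ranked per kilobase by the smaller of the 2 source medians, the leading 20 genes outside mitochondrial, ribosomal and predicted ones began with B2m, the light chain of MHC class I, at 5378 CPM per kb in KT_ and 11907 in zBo. cells. Ibsp came next (3852 and 5901 CPM per kb), then Gpx3, a secreted peroxidase (5129 and 3489), Serping1 (6164 and 3462) and Cxcl12. Behind them stood H2-D1 and H2-K1 (MHC class I), Adipoq, Hp, Fos, Ftl1 and Fth1 (ferritin), Ubb, Tmsb4x, Ifitm3, Malat1, Cst3, Hspa8, Tmem176b and Apoe.

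The next question was which genes differed most from cell to cell. For 3172 genes with a mean of 20 CPM or more and 10 CPM or more in 20% or more of the cells of each source, the squared CV was set against its trend on the mean. A gene counted as more variable when it stood over 1 above the trend on the log2 scale, that is more than double the squared CV of the trend, in both sources. There were 60 such genes, 1.89% of those tested. Another 61 genes, 1.92%, lay as far below the trend in both. Within a single source the share above was 8.42% in KT_ and 15.6% in zBo. cells, and the correlation of the excess across genes between the sources was weak (Spearman's rho 0.234 over 3172 genes, which share libraries within a source). Median CVs of the tested genes were 1.29 in KT_ and 2.10 in zBo. cells. Of the 6 label markers other than Lepr, whose low range the rule removed, 0 were called in either direction. For 6 genes that says little beside shares of 1.89% and 1.92%.

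Of the 60 genes, 32 were also called when the cell with the highest value of each gene was left out, 35 without the 11 zBo. cells with few genes, 38 without the KT_ set N1, 53 without the KT_ set N2 and 48 after thinning. By the interquartile range of log2(CPM + 1), which follows the middle of the cells, 9 of the 60 were called. A set of 27 was called without the highest cell, without the few-gene cells and after thinning. With median-of-ratios size factors in place of the total count, 0 of the 27 were called over all members, and 22 were called once the cells with few genes were left out. The size factors gave those 11 cells a median weight of 0.0644 relative to their total, against 1.084 in KT_ cells, so the calls depend on how these cells are scaled. The 5 of the 27 not called in that last setting were Sgk1, Trf, Dcn, Mgp and Sfrp4.

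**Figure D3:**
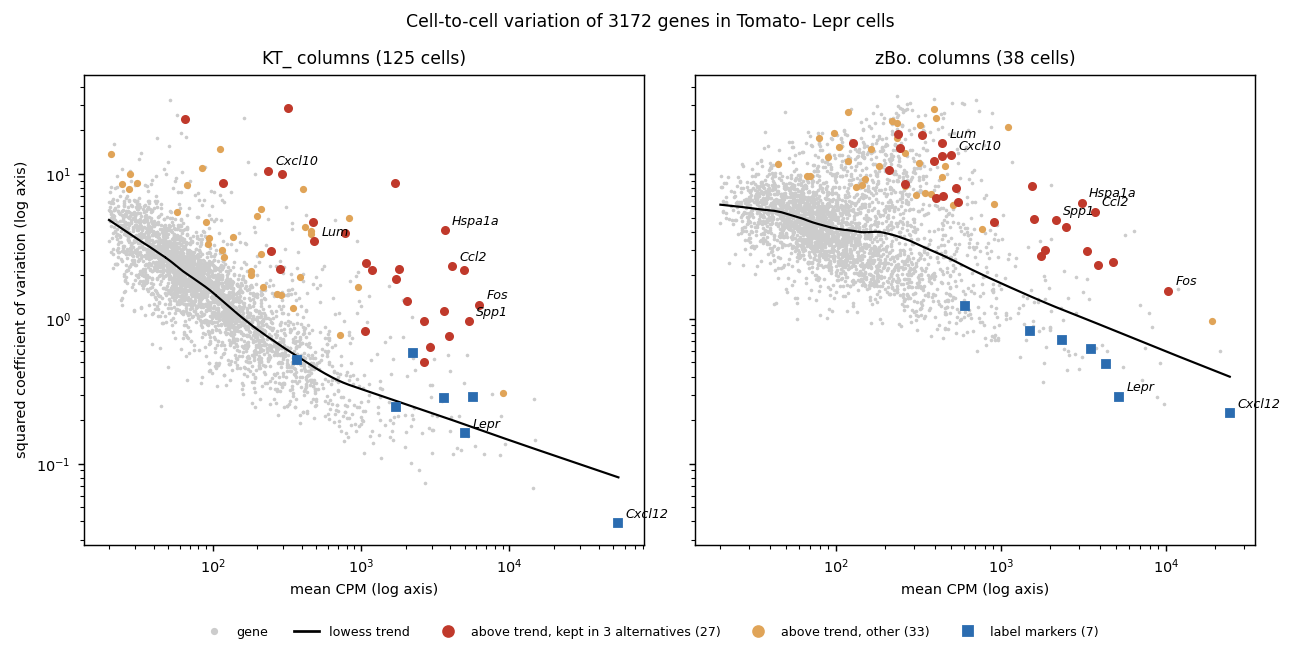
Squared CV against mean CPM, both on log axes, for 3172 genes in KT_ (left) and zBo. cells (right). The line is the trend, red points are the 27 genes called in all 3 settings, orange points the other 33 called genes and blue squares the label markers. Hspa1a, Ccl2, Fos and Spp1 lie above the trend at high mean levels, and Cxcl12 below it. The place of Lepr follows in part from the rule, which removed its low values.

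Heat shock genes had 5 of 13 tested above the trend, against 1.89% of all genes tested: Hspa1a, Dnajb1, Hspb1, Hsp90aa1 and Hspd1. Hspa1a (chromosome 17, 34969190 to 34972156), an inducible HSP70 chaperone, ran from 5.68 through a median of 566 to 51572 CPM in KT_ cells and from 2.70 through 57.5 to 33163 CPM in zBo. cells. Reads of this gene may be shared with its near-identical neighbour Hspa1b, whose median was 1.08 CPM in KT_ and 0 in zBo. cells. Hspa1a reached 1000 CPM in 49 KT_ members (39.2%) and 10 of 38 zBo. members, so most members of each source stayed below that level. Dnajb1, an HSP40 co-chaperone, reached it in 66 and 13 members and Hspb1, a small heat shock protein, in 31 and 4. Both Hspa1a and Dnajb1 stood at 1000 CPM in 28 KT_ and 6 zBo. members, and Spearman's rho between them across cells was 0.16 over the KT_ members of both sets and 0.51 in zBo. cells (n = 38). With Hsp90aa1, the inducible HSP90, the rho was 0.50 and 0.30 for Hspa1a and 0.34 and 0.62 for Dnajb1. The cells share libraries and differ in depth. Hspd1, a mitochondrial chaperone, lost its call without the cells with few genes (0.69).

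Immediate early genes, which cells switch on within minutes of a stimulus, had 5 of 17 tested above the trend, against 1.89% of tested genes. They were Fos, Dusp1, Nr4a1, Zfp36 and Atf3. Fos, a subunit of the AP-1 factor, ran from 62.8 through 4217 to 33659 CPM in KT_ cells and from 42.8 through 6699 to 68667 CPM in zBo. cells, and was at 1000 CPM or more in 98 and 29 members. Nr4a1, an orphan nuclear receptor, reached 1000 CPM in 95 KT_ members (76%) but 7 of 38 zBo. members, with medians of 2284 and 50.8 CPM. Dusp1, a phosphatase that shuts off MAP kinases, had medians of 1083 and 1114 CPM and reached 1000 CPM in 68 and 19 members. The gene most like Fos across cells, among 772 genes, was Egr1 (rho 0.67 in KT_ and 0.80 in zBo. cells), followed by Jun (0.39 and 0.79), and Hes1, a Notch target, came next (0.35 and 0.47). Atf3 lost its call without the cells with few genes (0.50).

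Inflammatory chemokines and cytokines were a further group. Of the chemokines other than Cxcl12, 4 of 8 tested stood above the trend: Ccl2, Ccl7, Cxcl1 and Cxcl10. So did 4 of 12 NF-kB list genes, Ccl2, Ccl7, Cxcl1 and Il6, against 1.89% of all genes tested. Ccl2, which draws monocytes, ran from 19.548 through 1739 to 32512 CPM in KT_ cells and from 36.997 through 209 to 47562 CPM in zBo. cells. It reached 1000 CPM in 70 KT_ members (56%) and 10 of 38 zBo. members. Cxcl1, which draws neutrophils, did so in 29 and 2 members, Cxcl10, a target of interferon, in 10 and 3, and Il6 in 5 and 2. The 5 KT_ cells with Il6 at that level were all of the set N1, in which the highest value was 16832 CPM, whereas the highest in N2 was 346. Of the 19 KT_ members with Ccl7 at 1000 CPM 14 also had Ccl2 there, as had all 3 in zBo. columns, and 24 of 29 KT_ members with Cxcl1. The genes most like Ccl2 across cells were Ifrd1 (rho 0.51 and 0.49), Ccl7 (0.49 and 0.65), Neat1 (0.40 and 0.40) and Irf1 (0.40 and 0.54).

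Promoter sequences of the variable stress and chemokine genes are shown because genes of these lists were among the more variable ones. They are RefSeq sequences on GRCm38.p6, the 250 bases before the annotated start, 5′ to 3′ on the gene's strand. Capitals mark matches on either strand to a heat shock element core (GAANNTTC or TTCNNGAA) in the first 2 genes and to an NF-kB type motif (GGGA, any 2 bases, then TTCC) in the last 3. Hspa1a lies at chr17:34972157-34972406 on the minus strand, with 1 match.
Hspa1a: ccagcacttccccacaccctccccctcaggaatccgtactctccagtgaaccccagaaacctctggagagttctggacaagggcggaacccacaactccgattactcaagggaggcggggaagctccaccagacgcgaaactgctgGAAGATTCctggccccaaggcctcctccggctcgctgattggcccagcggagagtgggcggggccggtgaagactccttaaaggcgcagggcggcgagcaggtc
Hspb1 lies at chr5:135887669-135887918 on the plus strand, with 2 matches, the nearer starting 97 bases before it.
Hspb1: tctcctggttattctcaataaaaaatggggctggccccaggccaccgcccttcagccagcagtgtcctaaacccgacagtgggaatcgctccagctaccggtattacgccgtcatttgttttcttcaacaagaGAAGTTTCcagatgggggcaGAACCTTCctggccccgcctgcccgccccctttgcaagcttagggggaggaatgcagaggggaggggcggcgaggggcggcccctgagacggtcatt
Cxcl1 lies at chr5:90890995-90891244 on the plus strand, with 2 overlapping matches on opposite strands, starting 71 and 70 bases before it.
Cxcl1: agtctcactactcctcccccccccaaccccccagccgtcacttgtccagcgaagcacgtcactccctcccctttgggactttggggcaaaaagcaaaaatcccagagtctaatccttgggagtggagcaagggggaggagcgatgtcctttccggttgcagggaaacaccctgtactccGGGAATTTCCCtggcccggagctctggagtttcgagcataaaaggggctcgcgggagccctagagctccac
Cxcl10 lies at chr5:92348890-92349139 on the minus strand, with 1 match.
Cxcl10: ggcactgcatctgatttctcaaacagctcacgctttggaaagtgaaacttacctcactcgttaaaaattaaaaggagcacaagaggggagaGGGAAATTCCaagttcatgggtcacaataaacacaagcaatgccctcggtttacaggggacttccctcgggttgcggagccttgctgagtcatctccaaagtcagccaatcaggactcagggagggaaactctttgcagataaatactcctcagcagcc
Il6 lies at chr5:30012864-30013113 on the plus strand, with 1 match 44 bases before it.
Il6: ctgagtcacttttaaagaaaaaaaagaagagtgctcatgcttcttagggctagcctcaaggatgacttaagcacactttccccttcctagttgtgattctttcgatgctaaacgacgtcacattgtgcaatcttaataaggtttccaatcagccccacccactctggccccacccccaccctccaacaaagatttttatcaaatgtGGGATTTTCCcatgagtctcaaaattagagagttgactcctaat

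Of 27025 promoters of this length, 12.91% held the heat shock core and 1.169% the NF-kB type motif. Among the lists, 6 of 10 heat shock genes with an entry held the former and 4 of 14 NF-kB list genes the latter. The windows of Dnajb1 and Dnajb4 had 0 matches to the heat shock core, although both genes were called more variable. Those of Ptx3, also called more variable, Icam1 and Cxcl12 had 0 to the NF-kB type motif. Ccl2, Ccl7 and Hsp90aa1, all called more variable, had no promoter entry and could not be looked at. A match describes letters in a window and is not evidence of binding.

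Bone and matrix genes formed the remaining group. Above the trend stood 2 of 12 osteogenic, 3 of 23 matrix and 1 of 12 collagen genes tested, against 1.89% of all genes tested. Spp1, osteopontin, ran from 24.004 through 3524 to 28927 CPM in KT_ cells and from 11.6 through 256 to 19750 CPM in zBo. cells, and reached 1000 CPM in 82.4% of KT_ but only 9 of 38 zBo. members. Of the list of 22 Sca1+ fibroblast genes only 5 could be tested. Of these, 4 stood above the trend: Lum, Dcn, Gsn, which lost its call without its highest cell (0.72), and Sfrp4. Lum, the collagen-binding proteoglycan lumican, had medians of 134.3 and 17.5 CPM with highest cells of 5681 and 10628, and reached 1000 CPM in 20 and 2 members. Dcn, decorin, of the same family, reached it in 50 and 12, and 13 of the 20 KT_ members with Lum at that level had Dcn there too. Col3a1, type III collagen, had medians of 50.6 and 19.4 CPM, and its rho with Lum was 0.32 and 0.36. Ly6a, which encodes Sca1 itself, reached 10 CPM in 4.8% of KT_ and 7.89% of zBo. members. Ibsp lay at the threshold (1.02) and lost its call without the cells with few genes (0.97).

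Several of the 20 genes with the largest excess rested on single cells. Without the highest cell of each gene the excess of Yod1, a deubiquitinase, was 0.66, that of Agps, an enzyme of ether lipid synthesis, 0.16, and those of Tnks2, Lars2 and Tmx3 were 0.36, 0.91 and 0.12, all below the threshold of 1. Ptx3, a pattern recognition protein, kept 2.46 there but had 0.02 without the cells with few genes. Thbs1, thrombospondin 1, kept its call in both settings (1.3 and 1.36), with medians of 553 CPM in KT_ and 3.78 CPM in zBo. cells. Tgtp2, an interferon-induced GTPase, was at 1000 CPM or more in 1 KT_ and 11 zBo. members. The smaller of its excesses in the sources was 1.82 without its highest cell and 3.27 without the cells with few genes. Kcne4, a potassium channel subunit, completed the group, with highest cells of 8790 and 9581 CPM over medians of 4.88 and 8.53.

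**Figure D4:**
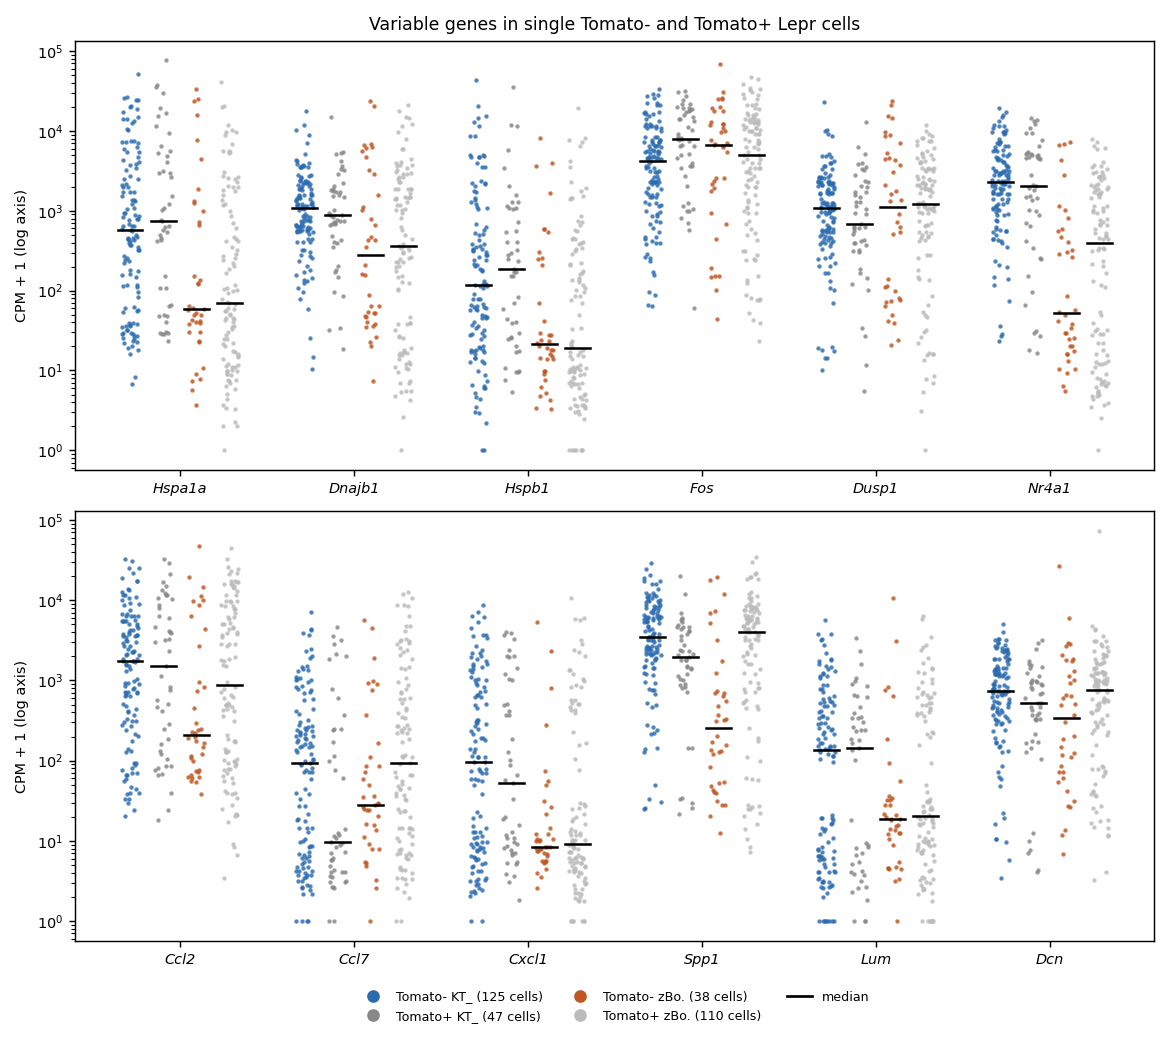
Levels of 12 variable genes in single Tomato- (blue KT_, orange zBo.) and Tomato+ (grey) Lepr cells, as CPM + 1 on log axes, with medians as black lines. Values run over 3 or more powers of 10 for Hspa1a and Ccl2, and Tomato+ cells span like ranges. Spp1 medians are 3524 and 256 CPM in Tomato- and 1954 and 4032 CPM in Tomato+ KT_ and zBo. cells.

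The genes with the least variation for their level were Itm2b, a membrane protein, Pam, a peptide-amidating enzyme, Ppia, cyclophilin A, and Cox6c, a respiratory chain subunit, followed by Eif1, Selenow, Tmem176b, Cfl1, Pfn1 and Rnaset2a. Itm2b ran from 579 through 2727 to 4603 CPM in KT_ cells, with a CV of 0.271, and from 62.7 through 1913 to 3531 CPM in zBo. cells, with a CV of 0.605. The housekeeping list had 0 of 20 tested genes above the trend and 3 below it. Gapdh, whose reads could not be separated from those of a pseudogene with identical values, had medians of 395 and 10.3 CPM, and 81.2 CPM in zBo. cells once the 11 cells with few genes were left out.

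Whether the same genes varied in Tomato+ Lepr cells was looked at with the same measure. Of the 60 genes, 54 had a value in both Tomato+ sources, 49 lay above the trend there and 30 above it by more than 1. Over all genes 2.59% passed in the Tomato+ cells. Spread and high cells of these genes were thus present in both sorted groups: Hspa1a reached 1000 CPM in 22 of 47 KT_ and 28 of 110 zBo. Tomato+ cells, and Ccl2 in 25 and 54.

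Covariation across cells was described for all pairs of 21 gene lists that share no gene, by Spearman's rho of mean log2(CPM + 1). It was negative in both sources for 7 pairs, and every pair shares the cells' depth. The strongest by the smaller of both values was collagens with matrix genes, at 0.45 in KT_ and 0.72 in zBo. cells (n = 38), at 0.41 and 0.69 given the total count, and at 0.32 and 0.43 given the number of genes. Immediate early genes went with the NF-kB list at 0.30 and 0.64 and osteogenic genes with the insulin-like growth factor list at 0.33 and 0.31. Without the cells with few genes the zBo. value for collagens with matrix genes was 0.47. Niche factors with iron and antioxidant genes had 0.31 and 0.68, but 0.11 within the KT_ set N2 alone and 0.43 within N1. The housekeeping list went with collagens at 0.23 and 0.68, with matrix genes at 0.11 and 0.70 and with iron genes at 0.08 and 0.77. With immediate early genes it had 0.13 and 0.11. High values in zBo. cells were thus not particular to pairs of stromal lists.

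**Figure D5:**
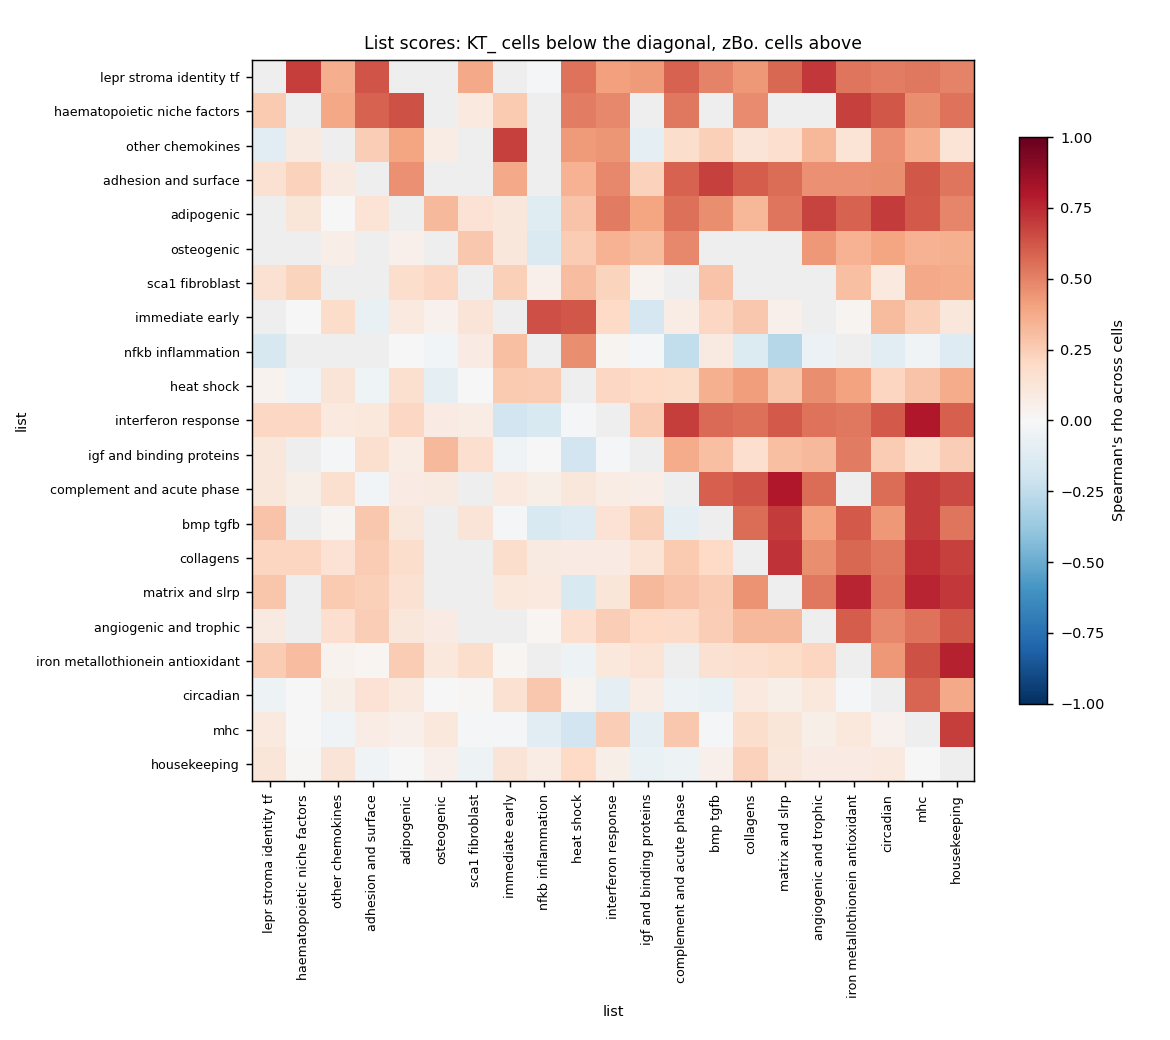
Spearman's rho across cells between list scores, as colour from -1 to 1, with KT_ cells (sets of 69 and 56) below and zBo. cells (n = 38) above the diagonal. Grey squares are the diagonal and list pairs that share genes, which were not computed. Collagens with matrix genes reach 0.45 and 0.72, the highest pair by the smaller of both values.

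For the label's own genes, likeness across cells was modest. Cxcl12 went best with Clu (rho 0.45 in KT_ and 0.55 in zBo. cells), Gas6 (0.43 and 0.65) and Igfbp4 (0.39 and 0.41). The rho of Cxcl12 with Gas6 was 0.44 and 0.51 in the Tomato+ cells and that with Clu 0.08 and 0.25. Adipoq went best with Apoe (0.45 and 0.33) and Kitl with Ebf3 (0.30 and 0.58). Lepr, whose lower range was removed by the rule, had its highest values, by the smaller of both sources, of 0.29 and 0.31 with Sept11, a septin, and 0.20 and 0.32 with Pros1, protein S. Col1a1 went best with Cpxm1 (0.33 and 0.39).

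Cells resembled each other more within the KT_ than within the zBo. columns. The median rho between pairs of cells over the 3172 genes was 0.432 within KT_ and 0.301 within zBo. members, and 0.314 between them. Members and Tomato+ Lepr cells of the same source had 0.425 in KT_ and 0.312 in zBo. columns, values close to those within the members. A KT_ member was thus on median more like a Tomato+ KT_ cell than like a zBo. member.

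Differences between the sources were large for some lists. Over 7000 genes, the KT_ mean was more than 4 times the zBo. mean for 8.2% and the zBo. mean more than 4 times the KT_ mean for 8.86%. Among immediate early genes 8 of 23 were higher in KT_ cells by that size, for example Junb (means 3098 and 529 CPM) and Fosb (2925 and 722). By the same size 0 were higher in zBo. cells, although Fos (6243 and 10335) and Dusp1 (1802 and 3873) had higher zBo. means. Of 19 interferon response genes 11 were higher by that size in zBo. cells and 0 in KT_ cells, for example Rtp4 (means 16.3 and 282 CPM). In Tomato+ cells of the same sources Rtp4 had means of 17.6 and 144.5. Tgtp2 had means of 65.3 and 1593 CPM. Of 9 myeloid genes 7 were higher in KT_ cells by the same 4-fold measure.

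The last comparison set the Tomato- members against the Tomato+ Lepr cells within each source, by the log2 ratio of mean CPM + 1, a scale that understates changes of low genes. Of 5766 genes, 3.02% were higher and 2.95% lower in Tomato- cells by more than 1.5-fold in both sources, 5.97% in either direction. Of the 7 label markers 0 were, which says little beside that share. The ratio of Lepr is also bound by the rule, which both groups had to pass. With median-of-ratios size factors, which moved the median log2 ratio in zBo. columns from -0.14 to 0.32, the shares were 5.27% higher and 1.60% lower of 3757 genes, so the balance of directions depends on the scaling. Their log2 ratios in KT_ and zBo. columns were 0.25 and 0.33 for Lepr, 0.01 and -0.87 for Cxcl12, 0.07 and 0.34 for Kitl, 0.05 and 0.23 for Adipoq, -0.22 and -0.49 for Vcam1, -0.13 and 0.21 for Lpl and 0.10 and 0.07 for Ebf1. The KT_ sets carry numbers that both groups share, N1 (69 cells) with P1 (24 cells) and N2 (56 cells) with P2 (23 cells). Within both pairs of sets, 86.05% of the called genes kept the called sign and 40.4% passed 1.5-fold. The calls came from these same cells, so such agreement is in part built in. No such pairing was made in zBo. columns. There all Tomato- cells are of the set N2, whereas by the sample titles most Tomato+ cells carry another set number. Tomato state and set therefore cannot be told apart in most of the zBo. comparison. No source says whether the sets came from different animals.

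Kit, the gene whose locus drives the Cre, had the lowest ratio of Tomato- to Tomato+ cells by the smaller of both sources, although other genes lay lower in zBo. columns alone. Its mean was 2.07 CPM in Tomato- and 41.8 CPM in Tomato+ KT_ cells, and 0.636 and 24.03 CPM in zBo. cells, for log2 ratios of -3.80 and -3.94. It reached 10 CPM in 1.60% of KT_ members (0.194 to 5.66%) and 2.63% of zBo. members (0.0666 to 13.8%), against 12.8% and 8.18% of Tomato+ cells, and 1 cell held 79.4% of the KT_ and 75.7% of the zBo. members' summed level. Next came Fndc1, a secreted fibronectin type III protein, with means of 23.6 against 103.7 CPM in KT_ and 1.82 against 82.5 in zBo. cells. Ptger3, a prostaglandin E2 receptor, had 9.5 against 25.03 and 0.216 against 35.4, but within the KT_ sets its log2 ratio was -2.82 in set 1 and 3.64 in set 2, so its direction was not the same in both. Kit had -2.52 and -5.80 there and Fndc1 -2.02 and -2.12. Rfxank, a regulator of MHC class II genes, had 7.39 against 33.6 and 0.122 against 21.2. Fem1a, Nek9, Tmem164, Pak3 and Gucd1 were also among the 10 lowest.

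Higher in Tomato- cells were Abcc9, a subunit of ATP-sensitive potassium channels, Hps5, a trafficking factor, Apaf1, of the apoptosome, Gbp6, an interferon-induced GTPase, and Ascc2, Wars, Pxdn, Tbc1d23, Tbce and Mdn1. Abcc9 had means of 47.7 against 6.42 CPM in KT_ and 286 against 31.8 in zBo. cells, but without the cells with few genes the smaller of its log2 ratios was 0.42, below the 1.5-fold threshold. Gbp6 had 75.9 against 15.2 and 540 against 177.1. The calls of Apaf1, Wars and Tbc1d23 were lost without the highest cell of each group (smaller log2 ratios 0, 0 and 0.58, where 0 means that the sources differed in sign), and that of Pxdn without the KT_ set N1 (0.48). Within both KT_ sets, 18 of the 10 highest and 10 lowest genes passed 1.5-fold, and the exceptions were Ptger3 and Pxdn. All of these genes were picked by ratios over the same cells, so that count is in part built in. With the median over cells in place of the mean, 0 of the 10 highest and 10 lowest genes passed, and over 1193 genes 16 were higher and 39 lower. Each of the 10 highest had a median of 0 in KT_ members, so it could not have passed as higher there. Of the 10 lowest, Kit stayed under 10 CPM in most Tomato+ cells too. Its median could not reach the 20 CPM needed for a call, so its loss there says little.

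Among the variable genes, Spp1 went opposite ways in the sources, at a log2 ratio of 0.83 in KT_ and -1.28 in zBo. columns. Of the stress and inflammation lists, 0 of 13 heat shock, 0 of 23 immediate early and 0 of 14 NF-kB genes tested were called in either direction, a share that says little beside the 5.97% over all genes. The median log2 ratios of these lists in KT_ columns were -0.08, 0.03 and 0.02, where all genes tested had 0.00. In zBo. columns they were -0.16, -0.58 and -0.995, where all genes tested had -0.14. The chemokines other than Cxcl12 had -0.09 and -1.03, and the interferon response list -0.04 and 0.74, so the NF-kB, chemokine, immediate early and interferon lists lay further from the median of all genes in zBo. than in KT_ columns. The cells with few genes were 11 of the 38 zBo. members but 8 of the 110 zBo. Tomato+ cells. Without them the median of all genes tested in zBo. columns was 0.03. The medians of these lists were not computed in that setting, so their zBo. values may rest in part on those cells. The difference between the sources was not tested.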

How the data were processed

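Single-cell RNA sequencing of 388 sorted marrow cells was deposited as 1 table of 25000 genes. The members are 163 of 201 Tomato- cells (125 of 141 in KT_ and 38 of 60 in zBo. columns), and 157 of 187 Tomato+ cells met the same rule. Per the file headers and values, the authors deposited expected counts: 82279 values, 4.91% of those above 0, were not whole. StringTie 1.3.3b, HTSeq 0.6.0 and HISAT are listed with the build GRCm38 in the submitters' processing notes, without saying which tool made which columns. Per the labels' protocols, cDNA of each lysed cell was amplified before library preparation, so high counts can stem from few molecules. Counting by strand is not stated, so a gene and an antisense partner cannot be told apart.

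Column names gave each cell's group and set, but no column was matched to a single title, and 0 columns were left unused or identical. Counts were rounded to whole numbers and scaled to CPM of the cell's total. No doublet caller was run. Members, gene lists (32, with 5 of 524 genes absent) and rules were chosen with earlier results of these data known.

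Shares have exact Clopper-Pearson 95% intervals. Variation is log2 of the squared CV minus a lowess trend (fraction 0.3), called above 1 in both column sources. Ratios use a pseudocount of 1 CPM and genes at 20 CPM or more in a group. Named were the label markers, the 20 highest genes per kilobase, the 20 most and 10 least variable, up to 4 highest and 2 most variable per list, the 10 largest ratios per direction and the 5 most alike genes of 7 anchors. Further list genes, among them Csf1, Il7, Il34, C4b, Foxc1, Col1a1, Sp7, Bglap, Plin1, Fabp4, Nr4a1, Mgp, Junb, Fosb and Rtp4, were chosen after their values were seen. Some genes that these rules name are not reported here. Lengths and coordinates come from GENCODE M21, in which 24685 symbols matched.

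Alternatives covered the Lepr threshold, depth, scaling, pseudocount, filters, single cells, sets and spread measure. Scripts used Python 3.11.15, numpy 2.4.6, pandas 2.3.3, scipy 1.17.1 and statsmodels 0.14.6, and were tested on simulated data.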

Additional observations from a re-analysis of the deposited data

How the results depend on the processing

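With the KT_ ratio taken as the mean of the ratios within sets 1 and 2, a replicate block by the set numbers that both groups share, 3.45% of genes were higher and 2.76% lower in Tomato- cells, 91.6% of the called genes kept their call, and Ptger3 lost its own. The block reuses the cells that gave the calls, so the share kept is in part built in. Leaving out a zBo. set was not run, since all zBo. members are of 1 set. The alternatives with that block, without a KT_ set, without the cells with few genes, with pool reads removed, without the highest cell of each group and with size factors and few-gene cells together were chosen after seeing the data. Of 265 values for the main results, 250 kept within their limits, which were set on the values and not on which genes were called. A count of genes of like size need not hold the same genes. With size factors 69 genes were called more variable, and only 5 of them were among the 60 of the main setting. The 250 values therefore do not show that the same genes were called. The shares of tested genes higher and lower than in Tomato+ cells, 3.02% and 2.95%, were 1.77% and 1.53% with a pseudocount of 10 CPM, 1.34% and 3.27% by the median over cells, and 2.60% and 3.64% of all 25000 genes without a filter (651 and 909 genes). The share higher was 2.22% without the highest cell of each group, and with size factors 60 genes, 1.60%, were lower. Median Cxcl12 in KT_ cells was 68940 when the 20 highest genes were left out of the total and 25430 with size factors, and Lepr was 2333 there. The share of more variable genes, 1.89%, became 3.03% with size factors and no few-gene cells. The rho of niche factors with iron genes was 0.108 within the KT_ set N2. Without the few-gene cells it was 0.437 in zBo. columns, and that of collagens with matrix genes 0.471.

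By the interquartile range of log2(CPM + 1), which follows the middle of the cells and not the high ones, 65 genes were called and 9 of the 60 kept. There the excess was -0.134 for Yod1, -1.62 for Agps, -3.08 for Lum, -2.06 for Cxcl10, -2.47 for Thbs1, -2.59 for Kcne4, -3.92 for Cxcl1, -3.74 for Il6, -0.363 for Tnks2, -3.99 for Tgtp2, -2.11 for Dnajb4, -1.45 for Lars2, -0.185 for Hspb1 and -1.38 for Tmx3. With size factors it was -1.17 for Hspa1a, -0.244 for Lum, -0.842 for Cxcl10, -0.843 for Kcne4, -1.53 for Dnajb1, -1.73 for Lars2 and -1.26 for Hspb1. Without the few-gene cells it was -0.0735 for Tmx3, and with size factors as well -0.460 for Ptx3 and -0.0231 for Tmx3. The cause of these changes was not tested. Depth limits the shares of low genes such as Kit, and the intervals cover only the limited number of cells, taken as if independent.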
